A study of Mus musculus with 2 samples.

Results

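The rows described here are the rodent long terminal repeat entries whose names begin with RLTR and a number, apart from RLTR1, RLTR4, RLTR6, RLTR10 and RLTRETN. The rule uses the names of the rows and none of their values, and it took 85 of the 952 repeat types in the tables. Of these, 84 had at least 100 input reads over both lanes and were analysed, and the remaining row was RLTR43B, with 13 ChIP and 18 input reads. The rows fall into 33 families by the number after RLTR, of which 15 had more than 1 analysed row, and 6 rows are internal sequences whereas 79 are long terminal repeats (LTRs).

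The data came from wild-type mouse embryonic stem (ES) cells of strain 129S1/SvImJ grown in serum with leukemia inhibitory factor. All cells, those for the input included, had been held for 12 hours in 9 µM RO-3306, which blocks the mitotic kinase CDK1, then washed and harvested 11 hours later as a mitotic population. The ChIP group was 1 sample precipitated with an antibody against phosphorylated serine 31 of histone H3.3 (H3.3S31ph), and the input group was 1 sample of sheared chromatin sequenced without antibody. No biological replicates exist, so no test between conditions was possible, and each library was sequenced in 2 lanes that were summed. Both groups share the drug block and the fixation, so neither holds unsynchronised cells.

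An endogenous retrovirus consists of an internal sequence, which once encoded the viral proteins, between a pair of LTRs, which hold the promoter and the polyadenylation signal. Recombination between the LTRs removes the internal sequence and leaves a solitary LTR, and for most old families solitary LTRs are the common form. In mouse ES cells some RLTR families, among them RLTR9, RLTR13 and RLTR17, are known as sources of enhancers that bind pluripotency factors, and RLTR13D5 is known for enhancer activity in trophoblast stem cells. H3.3 is the histone H3 variant laid down outside replication, at active regulatory elements as well as at telomeres and silenced repeats, and serine 31 is phosphorylated in mitosis.

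The ratio of a row divides its share of the ChIP reads counted in the tables by its share of the input reads counted there. It is given with a 95% exact conditional interval, which covers counting error only, and since amplified reads without molecular identifiers are not independent molecules, it does not hold the error of amplification. On this scale the gain of any abundant repeat pushes the ratios of the rest down, and the median of the 704 repeats with at least 100 input reads had a ratio of 0.805. Values are therefore also given relative to this median repeat, as a log2 difference from it. Differences between rows do not depend on the scale between the libraries.

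Most RLTR rows lay near the bulk of repeats and below the input level, and a few families, RLTR44 and RLTR9 first among them by pooled reads, reached or passed the input level. Together the rows held 546494 ChIP reads and 465858 input reads, which is 4.47% of ChIP and 5.26% of input repeat reads, a pooled ratio of 0.849 (0.846 to 0.852). The median analysed row had a ratio of 0.825, and the middle of the distribution ran from 0.790 at the lower quartile to 0.9497 at the upper. Over all 704 repeats the median was 0.805 and the quartiles were 0.761 and 0.869. The upper quartile of the RLTR rows was thus the value that lay farthest from that of all repeats.

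By counting error, 8 of the 84 rows had an interval above 1, against 7.81% of all repeats analysed, and 61 had one below 1, against 79.5%. A ratio of at least 5/4 was reached by 2 rows, RLTR9E and RLTR44-int, where 4.12% of all repeats reached it. Just inside this fold stood RLTR44-int at 1.28 and just outside it RLTR9D at 1.24. A ratio of 0.8 or lower was found in 22 rows, where 47.4% of all repeats had one. As shares of the RLTR rows, the rows past these folds made up 2.38% and 26.2%, and those with an interval above 1 made up 9.52%.

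Relative to the median repeat, 38 of 84 rows had an interval above it, against 27.3% of all repeats, and 14 had one below it, against 19.2%. Intervals narrow with reads, and the median input was 3818 reads for the RLTR rows and 1420.5 for all repeats analysed. These shares of intervals, and those against 1 given before, were therefore not compared at equal depth. At least 5/4 times the median repeat was reached by 14 rows, against 11.1% of all repeats, and they made up 16.7% of the RLTR rows. Of these 14 rows, 5 were RLTR9 rows, 4 were RLTR44 rows and 2 were RLTR13 rows, and the other 3 were RLTR45, RLTR46 and RLTR27. The last inside this fold was RLTR13B2 at 1.26 times the median repeat, and the first outside it was RLTR42 at 1.249 times. No row (0 of 84) was at or below 0.8 times the median repeat, where 2.41% of all repeats were. By the conservative values of the authors' deposited table, which are on another scale, 17 of the 84 rows lay above 0 in both lanes, against 13.4% of all repeats, and 38 lay below 0 in both, against 41.2%.

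**Figure D1:**
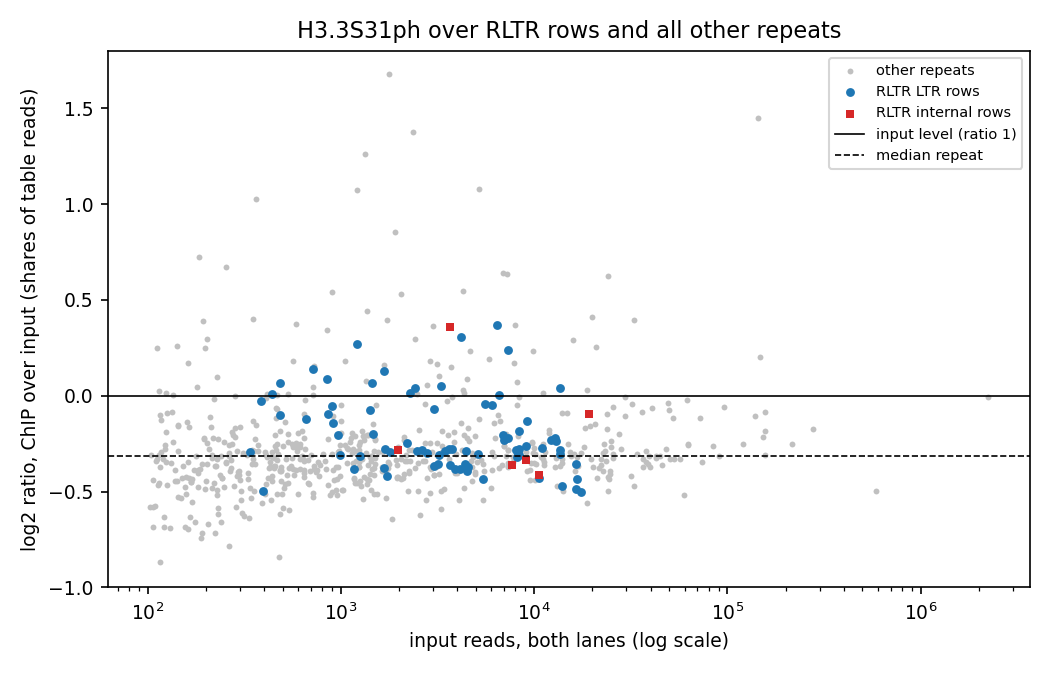
Each point is a repeat type with at least 100 input reads, placed by its input reads over both lanes (horizontal, log scale) and its log2 ratio of ChIP over input (vertical), with RLTR LTR rows in blue, RLTR internal rows in red and all other repeats in grey. The solid line marks a ratio of 1 and the dashed line the median repeat, most RLTR rows sit around the dashed line with a group of rows above it, and 2 other repeats lie outside the plotted range.

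The abundance of the rows in the input sets how precisely each ratio is known. Input reads ran from 338 for RLTR3_Mm through a median of 3818 to 19296 for RLTR45-int. The interval of RLTR3_Mm, 0.703 to 0.947, was accordingly wide, and that of RLTR45-int, 0.920 to 0.956, was narrow. Across the 84 rows, rarer rows tended to have higher ratios, with Spearman's rho of -0.289 between input reads and the log2 ratio. This is a description across rows of the same libraries, which are not replicates. The lanes gave close values. The median difference of their log2 ratios was 0.048 in size, and Spearman's rho between them was 0.864 across the 84 rows. The lane difference had an interval that excluded 0 in 6 rows, against 5.97% of all repeats. The 5 rows with the highest ratio were the same in both lanes, and of the top 10 the lanes shared 7. On the same side of 1 in both lanes were 74 of the 84 rows. Relative to the median repeat of each lane, 66 were on the same side.

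By count, RLTR9 had the most rows at least 5/4 times the median repeat, 5 of 8, beside 4 of 6 in RLTR44. The 8 RLTR9 rows are all LTRs, and their pool, with 24069 input reads, gave a ratio of 1.12 (1.10 to 1.14). All 8 had an interval above the median repeat, and 3 had one above 1. Pooled, RLTR9 lay 0.42 above the other RLTR rows on the log2 scale (0.40 to 0.44), and without RLTR9E, a choice made after seeing the values, it lay 0.34 above them. The rows of this family nevertheless spanned 0.57 on the log2 scale from highest to lowest.

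RLTR9E had 5617 ChIP and 3203 input reads in lane 1 and 5795 and 3186 in lane 2. Its ratio was 1.29 (1.254 to 1.33), the highest among the RLTR rows, and its log2 ratio was 0.34 in lane 1 and 0.40 in lane 2. RLTR9D followed with 3631 ChIP and 2069 input reads in lane 1 and 3476 and 2091 in lane 2, a ratio of 1.24 (1.19 to 1.29). RLTR9E and RLTR9D were not separable, with a log2 difference of 0.064 (-0.0065 to 0.13). RLTR9B2, with 1016 ChIP and 604 input reads in lane 1 and 1009 and 612 in lane 2, had a ratio of 1.21 (1.12 to 1.30), and it was not separable from RLTR9D. These 3 LTRs were above the input level in both lanes.

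The other RLTR9 LTRs lay lower. RLTR9F had a ratio of 1.05 (0.978 to 1.12) and RLTR9C one of 1.03 (0.975 to 1.08), and the step from RLTR9B2 down to RLTR9F was 0.20 on the log2 scale (0.063 to 0.34). Next came RLTR9A at 0.966 (0.934 to 0.999) and RLTR9B at 0.964 (0.884 to 1.05), and last RLTR9A2 at 0.869 (0.811 to 0.933). These 5 rows stood around or below the input level and above the median repeat. RLTR9E exceeded RLTR9A by 0.42 (0.36 to 0.49) and RLTR9A2 by 0.57 (0.46 to 0.68) on the log2 scale. Of 7 pairs of neighbours in the order of RLTR9 ratios, only 2 had a difference whose interval excluded 0, namely RLTR9B2 over RLTR9F and RLTR9C over RLTR9A. The interval of the lane difference excluded 0 for RLTR9B, at log2 ratios of 0.094 and -0.19, and for RLTR9C, at -0.048 and 0.13. For both rows the direction against input therefore rested on the lane. Rows that share a letter could differ, since RLTR9B2 exceeded RLTR9B by 0.32 (0.16 to 0.48).

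RLTR13 had the largest number of rows, 15 LTRs with 72430 input reads, and its pool was not separable from the other RLTR rows. The pooled ratio was 0.853 (0.844 to 0.861), and the log2 difference from the other RLTR rows was 0.0073 (-0.0082 to 0.023). This middle position combined rows on both sides of the median repeat, since 5 rows had an interval above it, 4 below it and 6 including it. RLTR13D6, the highest row of the family, had 9879 ChIP and 6820 input reads in lane 1 and 9494 and 6791 in lane 2, a ratio of 1.03 (1.01 to 1.05). Without RLTR13D6, a choice made after seeing the values, the rest of the family lay 0.064 below the other RLTR rows on the log2 scale.

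RLTR13B2 had a ratio of 1.01 (0.958 to 1.07). Its log2 ratios were 0.11 in lane 1 and -0.075 in lane 2, and the interval of their difference excluded 0. RLTR13D1, at 0.9701 (0.937 to 1.00), and RLTR13A2, at 0.935 (0.854 to 1.02), included the input level. RLTR13B1 followed at 0.857 (0.831 to 0.884). These 4 rows and RLTR13D6 were the ones above the median repeat. At the low end, RLTR13C2 had 8631 ChIP and 8440 input reads in lane 1 and 8339 and 8169 in lane 2, a ratio of 0.740 (0.724 to 0.756). RLTR13A3 at 0.747 (0.699 to 0.799), RLTR13D3 at 0.761 (0.730 to 0.793) and RLTR13D5 at 0.772 (0.741 to 0.804) were the other rows below the median repeat.

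Rows of RLTR13 that share a letter also differed. Within the D group, RLTR13D6 exceeded RLTR13D5, the LTR known from trophoblast stem cells, by 0.42 on the log2 scale (0.35 to 0.48), and RLTR13D1 exceeded RLTR13D5 by 0.33 (0.25 to 0.41). RLTR13D2 at 0.782 and RLTR13D4 at 0.817 included the median repeat, as did RLTR13A at 0.843, RLTR13B3 at 0.776, RLTR13B4 at 0.825 and RLTR13C1 at 0.826. In the B group RLTR13B2 exceeded RLTR13B3 by 0.38 (0.28 to 0.49). Pooled by letter, the D group had a ratio of 0.913, the B group 0.861, the A group 0.825 and the C group 0.755. None of the 14 neighbouring pairs in the order of RLTR13 ratios (0 of 14) differed beyond the interval, although the ends of the order, RLTR13D6 and RLTR13C2, were 0.48 apart (0.43 to 0.52). Neighbours here are adjacent by ratio, so the sorting alone brings their values close. The assignment of reads that match several related entries is not stated, and its part in these ratios was not tested.

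RLTR17, the third family known for ES cell enhancers, is a single LTR row. It had 7811 ChIP and 6416 input reads in lane 1 and 7428 and 6444 in lane 2, a ratio of 0.858 (0.838 to 0.878). This was 0.092 above the median repeat on the log2 scale and below the input level in both lanes. RLTR13D6 exceeded RLTR17 by 0.26 (0.22 to 0.31), and RLTR9E exceeded RLTR13D6 by 0.33 (0.27 to 0.38). The pools of the 3 families thus did not share a level, with RLTR9 at 1.12, RLTR13 at 0.853 and RLTR17 at 0.858. These pools mix rows, from 0.869 to 1.29 in RLTR9 and from 0.740 to 1.03 in RLTR13. Which rows act as enhancers in these cells was not tested.

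**Figure D2:**
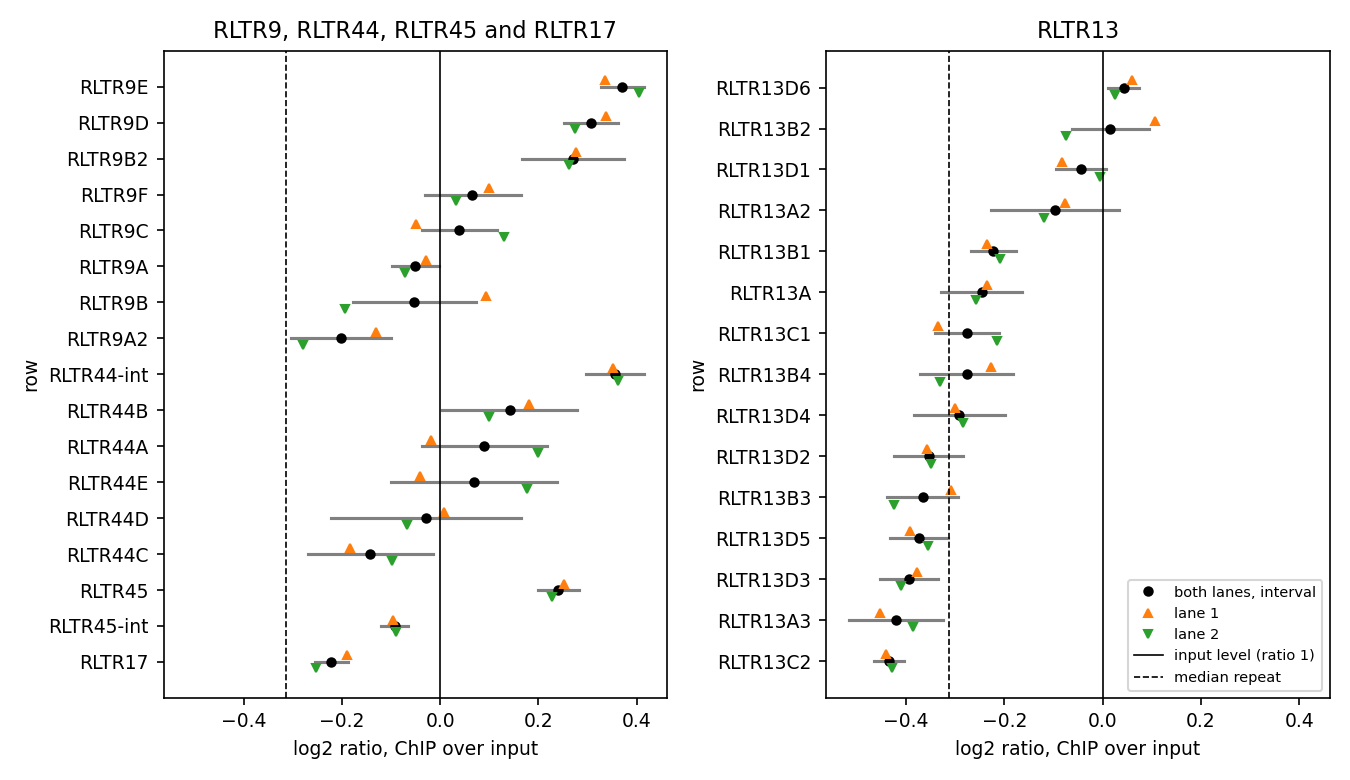
Log2 ratios of ChIP over input (horizontal) are shown for each row of RLTR9, RLTR44, RLTR45 and RLTR17 on the left and of RLTR13 on the right, with black points for both lanes summed, grey lines for the 95% interval of counting error, and triangles for lane 1 and lane 2. RLTR9E, RLTR9D, RLTR9B2, RLTR9F, RLTR44-int, RLTR44B, RLTR45 and RLTR13D6 lie right of the solid line (ratio 1) in both lanes, and the interval of RLTR9F crosses it. RLTR13 rows spread from RLTR13D6 at 1.03 to RLTR13C2 at 0.740, on both sides of the dashed line (median repeat).

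RLTR44 had the highest pooled ratio of the 33 families, 1.15 (1.12 to 1.19), which its internal row set, since its pooled LTRs had 1.02 (0.973 to 1.06), below the RLTR9 pool. The median of the RLTR44 rows was 0.079 on the log2 scale and that of the RLTR9 rows 0.053, both below the single row RLTR46 at 0.13. The median of the RLTR45 rows, 0.074, lay between those of RLTR44 and RLTR9. All 6 RLTR44 rows had an interval above the median repeat. The difference from the pool of RLTR9 was 0.049 on the log2 scale (-0.00055 to 0.098), so the order of these families was not separable. Pooled, RLTR44 lay 0.45 above the other RLTR rows on the log2 scale (0.41 to 0.50). The internal sequence RLTR44-int had 3286 ChIP and 1854 input reads in lane 1 and 3172 and 1797 in lane 2. Its ratio of 1.28 (1.23 to 1.33) was not separable from that of RLTR9E, the log2 difference being 0.014 (-0.059 to 0.087).

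The RLTR44 LTRs lay below their internal sequence and rested on fewer reads, from 384 to 906 in the input. RLTR44B had a ratio of 1.10 (1.00 to 1.21) and RLTR44A one of 1.06 (0.975 to 1.16). RLTR44E followed at 1.05 (0.933 to 1.18), RLTR44D at 0.980 (0.857 to 1.12) and RLTR44C at 0.906 (0.830 to 0.990). RLTR44-int exceeded RLTR44B by 0.22 on the log2 scale (0.067 to 0.36), while no 2 neighbouring LTRs of RLTR44 were separable. At this depth an order among the RLTR44 LTRs was not detectable from one neighbour to the next, and sorting by ratio alone brings neighbours close. The ends of the order, RLTR44B and RLTR44C, had intervals that did not overlap.

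In RLTR45 the LTR was the higher. RLTR45 had 6035 ChIP and 3647 input reads in lane 1 and 5919 and 3679 in lane 2, a ratio of 1.18 (1.15 to 1.22). RLTR45-int, the most abundant RLTR row, had 12694 ChIP and 9765 input reads in lane 1 and 12303 and 9531 in lane 2. Its ratio was 0.938 (0.920 to 0.956), above the median repeat and below the input level in both lanes.

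Internal and LTR rows could be set against each other in 6 families, and their order was not the same from family to family. In RLTR44 the internal row lay 0.33 above the pooled LTRs on the log2 scale (0.24 to 0.42), at 0.37 in lane 1 and 0.29 in lane 2. In RLTR45 it lay below the LTR, at -0.33 (-0.38 to -0.28), and the lanes gave -0.35 and -0.32. RLTR42 had the same direction as RLTR45. There RLTR42-int had a ratio of 0.777 (0.753 to 0.802) and the LTR RLTR42, with 437 input reads, one of 1.01 (0.888 to 1.14), a difference of -0.37 (-0.55 to -0.19).

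RLTR14-int, with a ratio of 0.7504 (0.731 to 0.771), lay below the LTR RLTR14 at 0.821 (0.797 to 0.846). This difference was -0.13 (-0.19 to -0.072) on the log2 scale, -0.071 in lane 1 and -0.19 in lane 2. RLTR14-int was among the rows whose lane difference had an interval that excluded 0. RLTR18 and RLTR19 showed no separable difference, at 0.0094 (-0.083 to 0.10) and -0.0029 (-0.066 to 0.060). Their internal rows, RLTR18-int at 0.821 and RLTR19-int at 0.793, were close to the median repeat. Pooled over all families, internal rows lay 0.040 above LTR rows on the log2 scale (0.023 to 0.058). The sign of this pooled value turned when either of 2 internal rows was left out, a choice made after seeing the values, to -0.026 without RLTR45-int and -0.012 without RLTR44-int. The difference between the medians of the rows was -0.033. Internal and LTR rows as classes therefore had no direction that held across ways of pooling.

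**Figure D3:**
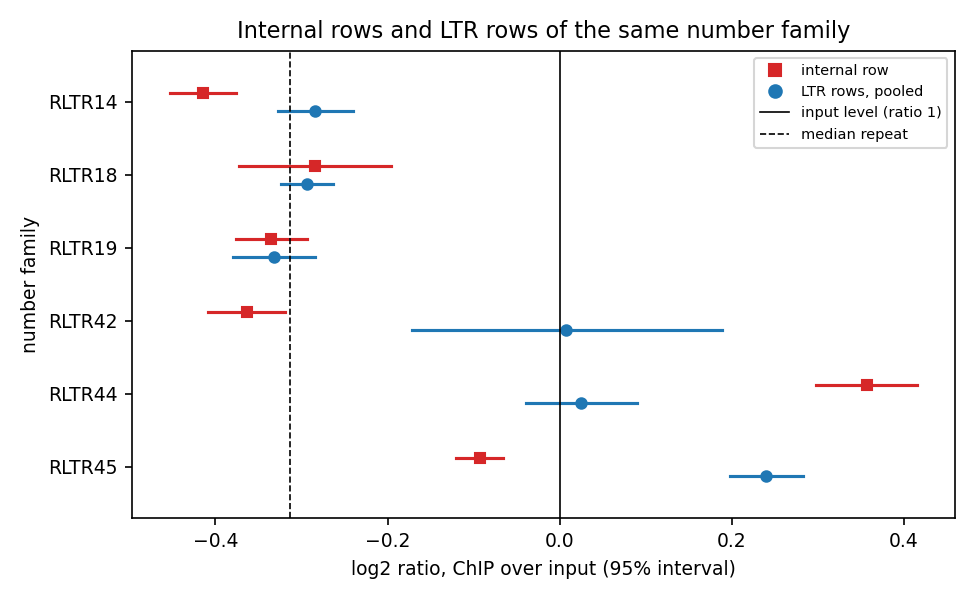
For the 6 families with both kinds of row, the log2 ratio of ChIP over input (horizontal) is drawn for the internal row (red squares) and the pooled LTR rows (blue circles), with lines for the 95% interval of counting error, a solid line at a ratio of 1 and a dashed line at the median repeat. The internal row is right of the LTRs in RLTR44, left of them in RLTR14, RLTR42 and RLTR45, and level with them in RLTR18 and RLTR19.

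Among families with a single row, RLTR46 was the only one with an interval above 1, at 1.10 (1.03 to 1.17) over 1669 input reads. RLTR27 had 1.04 (0.990 to 1.08) over 3296 input reads and RLTR41 had 1.00 (0.973 to 1.04) over 6554. Next came RLTR47_MM at 0.953 (0.909 to 1.00), RLTR5_Mm at 0.948 (0.884 to 1.02) and RLTR23 at 0.913 (0.888 to 0.938). These rows completed the single-row families whose log2 difference from the other RLTR rows had an interval above 0. RLTR5_Mm was a row whose lane difference had an interval that excluded 0, at log2 ratios of -0.18 and 0.031. RLTR46, RLTR27, RLTR41, RLTR47_MM, RLTR5_Mm and RLTR23 lay between 0.18 and 0.45 above the median repeat on the log2 scale.

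Of the 4 lowest rows, RLTR22_Mur, RLTR21 and RLTR22_Mus were abundant and had intervals below the median repeat, while RLTR43A rested on few reads. RLTR22_Mur had 8632 ChIP and 8880 input reads in lane 1 and 8335 and 8499 in lane 2, a ratio of 0.707 (0.692 to 0.722), and RLTR22_Mus had one of 0.721 (0.704 to 0.739). RLTR21, with 8290 ChIP and 8431 input reads in lane 1 and 7847 and 7941 in lane 2, had a ratio of 0.713 (0.698 to 0.729). The pooled log2 differences of RLTR22 and RLTR21 from the other RLTR rows were -0.27 (-0.29 to -0.24) and -0.26 (-0.29 to -0.23). All 3 rows were low in each lane, with log2 ratios from -0.51 to -0.46.

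RLTR40, at 0.744 (0.724 to 0.764), and RLTR31_Mm, at 0.740 (0.713 to 0.769), also lay below the median repeat. The 4 RLTR31 rows had ratios from 0.740 to 0.782, and all 4 were at or below 0.8, as were 47.4% of all repeats. The interval lay below the median repeat for 2 of them and included it for the other 2. RLTR43A had 0.707 (0.613 to 0.816) over 397 input reads, and its interval included the median repeat. RLTR15, one of the 5 most abundant rows, had 0.782 (0.765 to 0.798).

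Several families had rows close to each other. The 8 RLTR20 rows had ratios from 0.8002 to 0.918, and for 7 of them the interval included the median repeat, RLTR20A1 at 0.918 (0.828 to 1.02) being the exception. In RLTR25, RLTR25A and RLTR25B had ratios of 0.848 and 0.851, over 12988 and 12236 input reads. The 3 RLTR18 rows ran from 0.807 to 0.824 and the 3 RLTR11 rows from 0.809 to 0.868. RLTR19 was wider, from 0.768 to 0.933. Its row RLTR19B gave log2 ratios of -0.34 and -0.071 in the lanes, and the interval of their difference excluded 0. Over the 15 families with more than 1 analysed row, the range of log2 ratios within a family had a median of 0.13. The pooled values of all 33 families ranged over 0.72, with RLTR43, on 415 input reads, at the low end. A range grows with the number of items, and several of the 15 families have few rows. The values 0.13 and 0.72 therefore cannot be set against each other. Within RLTR9, RLTR44 and RLTR13 the ranges were 0.57, 0.50 and 0.48.

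**Figure D4:**
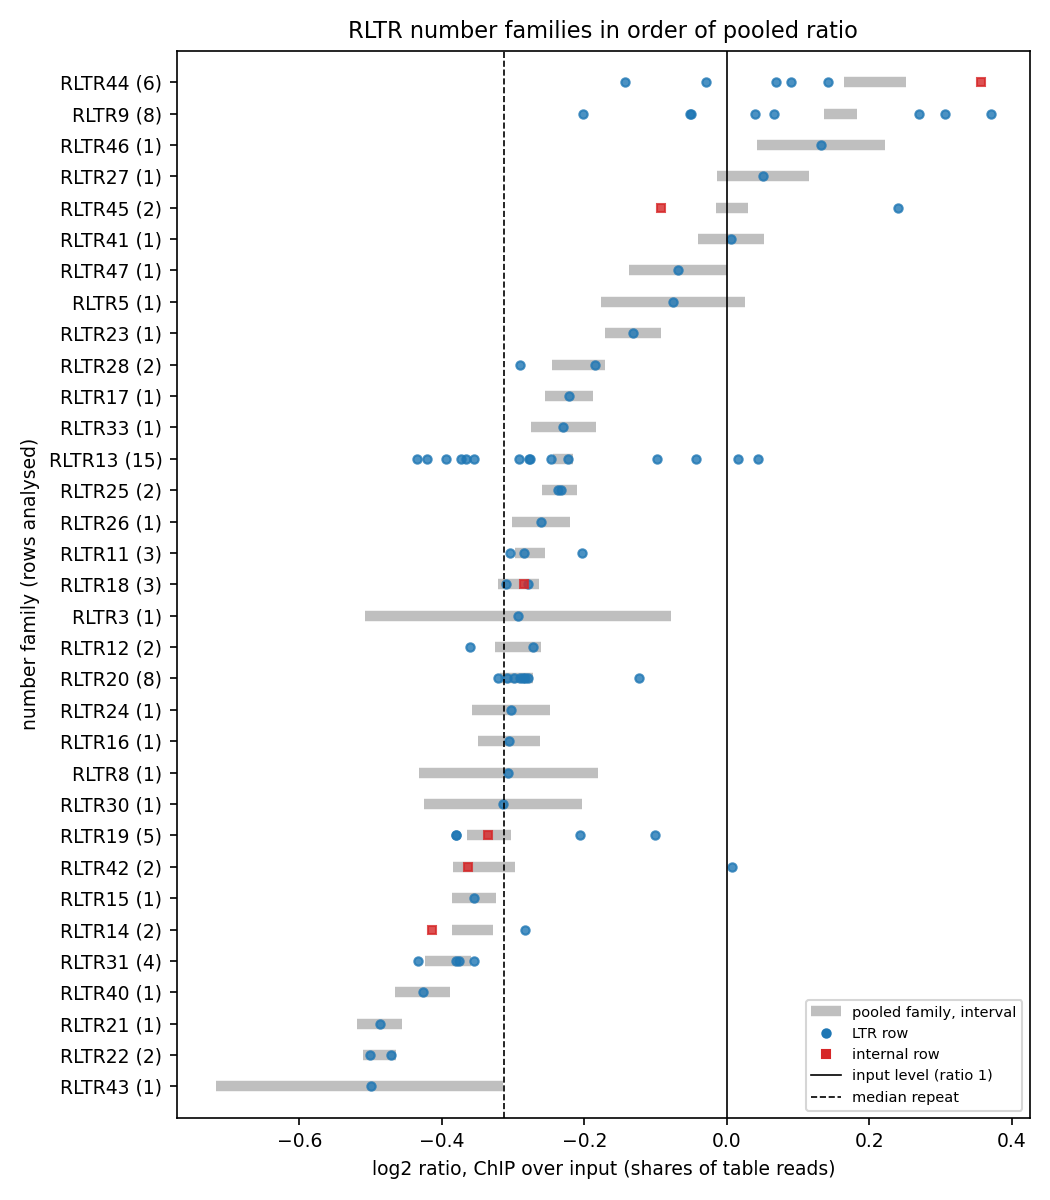
The 33 number families are listed from the highest pooled ratio (top) to the lowest, with the log2 ratio of ChIP over input on the horizontal axis, blue circles for LTR rows, red squares for internal rows, grey bars for the 95% interval of the pooled family, a solid line at a ratio of 1 and a dashed line at the median repeat. RLTR44 and RLTR9 stand at the top with rows spread over 0.50 and 0.57, RLTR20 and RLTR25 rows cluster, and the bar of RLTR43 also holds the reads of RLTR43B, which is not drawn as a point.

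Set beside related parts of the table, with no test, the RLTR rows had a median near those of the RMER, MaLR and BGLII rows and below those of the RLTR10 and IAP rows. The median ratio was 0.825 for the 84 RLTR rows and 0.816 for 39 RMER rows, which are older rodent LTRs, and 0.8002 for 27 rows of the rodent mammalian apparent LTR retrotransposons (MaLR). It was 1.13 for 8 RLTR10 rows, 0.815 for 4 BGLII rows and 1.23 for 15 intracisternal A particle (IAP) rows. At least 5/4 times the median repeat was reached by 14 of 84 RLTR rows, 0 of 39 RMER rows and 0 of 27 rodent MaLR rows, and by 7 of 8 RLTR10 rows, 0 of 4 BGLII rows and 14 of 15 IAP rows. The highest RLTR ratio, 1.29 for RLTR9E, lay below the highest RLTR10 row at 1.33 and the highest IAP row at 3.20, and above the highest RMER row at 0.994.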

How the data were processed

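Per the submitters' processing notes, Bowtie 1.0.0 and the mouse build mm9 were used. The step from reads to repeat types and any removal of duplicates are not given in the sources used here. For each of 2 lanes the authors deposited raw counts of ChIP and input reads by repeat type. The authors also deposited a log2 ratio with bounds. Tested on the values, it equals the log2 of the counts plus 0.5 minus a constant per lane, to within 0.00054. The tables held 12235477 ChIP and 8856751 input reads, from 6204712 ChIP and 4467116 input reads in lane 1 to 6030765 and 4389635 in lane 2.

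Lanes were summed by repeat type, and ratios and exact (Clopper-Pearson) intervals were computed with Python 3.11.15 and scipy 1.17.1. Intervals of log2 differences between rows came from the 4 counts with a log-normal approximation. The computation was tested on simulated data. Rows with fewer than 100 input reads were left out of counts and medians, but not of pools. Internal rows are those with "int" in the name. A fold of 5/4 or 0.8 stood in for a test. The rows named are the 10 highest and 10 lowest ratios, all rows of RLTR9, RLTR13, RLTR17, RLTR44 and RLTR45, all internal rows and the 5 with most input reads. Rows named beyond these, among them RLTR5_Mm, RLTR23, RLTR42, RLTR41, RLTR47_MM and rows of RLTR11, RLTR18, RLTR19, RLTR20, RLTR25 and RLTR31, were chosen after their values were seen, as were the pairs of rows compared. The members and lists were chosen with earlier results of these data known. Alternatives were each lane alone, 3 other scales, other read minimums, 1 read added to both counts, and medians in place of pools.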

Additional observations from a re-analysis of the deposited data

How the results depend on the processing

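The scale between the libraries moved the values most. It adds a constant to every log2 ratio, 0.31 with the median repeat set to 1, 0.20 without the 5 most abundant repeats and 0.17 on the deposited scale, and leaves differences between rows as they are. In that order of scales, the median log2 ratio of the RLTR rows, -0.28 with table totals, was 0.035, -0.075 and -0.11, and the pooled log2 ratio, -0.24 with table totals, was 0.077, -0.033 and -0.067. Rows with a ratio of at least 5/4, 2 with table totals, numbered 14, 7 and 5, and those at or below 0.8, 22 with table totals, numbered 0, 0 and 2. Intervals above 1, 8 with table totals, numbered 38, 23 and 19, and those below 1, 61 with table totals, numbered 14 with the median repeat set to 1. On that scale the shares over all repeats were, in the order of these 4 counts, 11.1%, 2.41%, 27.3% and 19.2%. For the deposited scale and the one without the 5 most abundant repeats, shares over all repeats were not computed. A scale moves every repeat, so the counts on those scales are no result about the RLTR rows. Without a read minimum 1 row, RLTR43B, was at or below 0.8 times the median repeat. The internal minus LTR difference was 0.040 with pooled reads, -0.033 between medians of rows, -0.026 without RLTR45-int and -0.012 without RLTR44-int. The pooled log2 ratio of RLTR44, 0.21, was 0.025 without RLTR44-int, and the median of its rows was 0.079. For RLTR9 the pooled value was 0.16 and the median of rows 0.053, so that RLTR46, at 0.13, lay above both families by medians. The median of the RLTR45 rows, 0.074, also lay above that of RLTR9. RLTR9 lay 0.34 above the other rows without RLTR9E, and RLTR13 at -0.064 without RLTR13D6. These omissions of a row were chosen after seeing the data. A set of 83 values covered the named rows, the families and the internal minus LTR differences within families. Some single-row families entered it as both row and family. Of these values, 77 moved by less than their counting error in lane 1 alone and 77 in lane 2 alone. None of the alternatives run turned the direction of a value past the fold. The scales could not have done so, since their largest shift, 0.31, is smaller than the fold, 0.32 on the log2 scale. Values short of the fold did change sign with the median repeat set to 1, among them RLTR17, from -0.22 to 0.092, and the RLTR13 pool, from -0.23 to 0.083. No paired analysis was possible because each group has 1 sample. RLTR44 LTRs adjacent in the order of ratios, with 384 to 906 input reads each, were not separable at this depth. Nor were the 14 such pairs of RLTR13, and sorting by ratio brings the values of such pairs close.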
